A study of Mus musculus with 5 samples.

Results

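Primordial germ cells of the mouse fetus were compared with a parthenogenetic embryonic stem cell line by reduced representation bisulfite sequencing. The assay cuts DNA with MspI, converts unmethylated cytosines and reads the methylation of the CpG-rich share of the genome. The germ cell library (PGC) came from fetal gonads at E12.5, enriched on magnetic beads carrying an antibody to SSEA1, a surface sugar of germ cells that stem cells and some other cells also carry. The stem cell library (pESC) came from a line grown on feeder cells in serum with LIF, and its genome is of maternal origin only. Both were of the C57BL6 strain. The sex and number of the fetuses and the number of pESC lines or clones do not stand in the sources used here. The other 3 libraries of the series, given only beside results, were a female embryonic stem cell line kept the same way (Female ESC) and germ cell-like cells induced from each line (ESC-PGCLC and pESC-PGCLC) by way of an epiblast-like culture of 46 h, then 4 days with BMP4, LIF, SCF and EGF, then sorted for CD61 and SSEA1.

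The comparison covers every region with a CpG methylation level in all 5 libraries, 154711 of the 176303 regions listed in any of them. PGC alone had 167781 regions, pESC 166516, and 163177 were listed in both. Regions fall into 8 classes: CpG islands (CGIs, short stretches dense in CpG), the shores beside them, 5' UTRs, promoters, introns, exons, 3' UTRs and repeat entries. A level is the percentage of cytosine calls in a region that were methylated, and a difference is PGC minus pESC in percentage points. Each group had 1 library and the values carry no read counts, so depth and counting error are unknown, no test was possible, and every difference is between these libraries, not between cell types. The CpGs read within a region may also differ between libraries, which was not tested.

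As background, DNA methylation in mammals is copied at cell division by Dnmt1 with its cofactor Uhrf1 and laid down anew by Dnmt3a and Dnmt3b. Germ cells pass through a wave of genome-wide loss on their way into and within the fetal gonad. That wave reaches the imprinted regions, whose methylation marks the parent of origin, and the CGI promoters of germline genes, while some endogenous retroviruses, IAP elements above all, are known to keep much of theirs. In body cells a maternally methylated imprinted region is methylated on the maternal copy only. In parthenogenetic cells both copies are maternal.

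Set against this background, the library labelled PGC held methylation at many imprinted regions. At the ends of 18 maternally methylated imprinted genes its median level was 22.4%, beside 33.9% in pESC. Among all 48 CGIs and shores at or inside these genes, the 33 with at least 20% in pESC had a median of 38.5% in PGC and 50% in pESC, and the other 15 were under 20% in pESC. Meiosis genes with a region, 16 in all, had a median of 13.4% in PGC, from islands under 2% to the shore of Brdt at 59.9%. Which share of the cells on the beads were germ cells was not given, and methylation alone cannot tell it: list medians of gonadal somatic, fibroblast and pluripotency genes, taken at the gene ends, were under 2% in both libraries. PGC and pESC below therefore name the libraries that carry those labels.

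The sequences that follow are promoter stretches that lie inside a measured CGI and stand for the patterns described further down. They are the part of the 250 bases before a gene's start that falls in its island, from RefSeq on GRCm38.p6, 5′ to 3′ on the gene's strand. Capitals mark CCGG, the site that MspI cuts and from which reads start. The same letters read on both strands. Plagl1 and Mcts2 are maternally methylated imprinted genes, Sycp3 and Sycp1 encode parts of the synaptonemal complex of meiosis, Dazl encodes an RNA-binding protein of germ cells, Dpep3 is a testis dipeptidase gene, and Uxt and Yy2 lie on the X chromosome.
Plagl1, chr10:13090582-13090831, plus strand: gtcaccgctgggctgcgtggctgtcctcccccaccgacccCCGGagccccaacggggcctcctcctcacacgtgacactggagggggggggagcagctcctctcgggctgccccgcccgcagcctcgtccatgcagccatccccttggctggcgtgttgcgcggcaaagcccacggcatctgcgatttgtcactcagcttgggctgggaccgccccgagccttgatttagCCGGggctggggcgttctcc
Mcts2, chr2:152686898-152687147, plus strand: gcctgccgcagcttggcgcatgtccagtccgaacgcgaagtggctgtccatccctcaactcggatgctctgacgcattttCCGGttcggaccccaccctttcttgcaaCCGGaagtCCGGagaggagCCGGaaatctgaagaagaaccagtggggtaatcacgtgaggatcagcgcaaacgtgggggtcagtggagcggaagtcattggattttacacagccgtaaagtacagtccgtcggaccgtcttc
Sycp3, chr10:88459494-88459586, plus strand: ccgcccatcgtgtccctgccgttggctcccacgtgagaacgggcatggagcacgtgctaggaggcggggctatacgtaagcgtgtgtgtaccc
Sycp1, chr3:102936101-102936230, minus strand: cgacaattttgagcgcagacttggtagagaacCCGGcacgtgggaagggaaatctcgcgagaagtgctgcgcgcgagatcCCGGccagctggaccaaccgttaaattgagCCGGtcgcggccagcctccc
Dazl, chr17:50293621-50293791, minus strand: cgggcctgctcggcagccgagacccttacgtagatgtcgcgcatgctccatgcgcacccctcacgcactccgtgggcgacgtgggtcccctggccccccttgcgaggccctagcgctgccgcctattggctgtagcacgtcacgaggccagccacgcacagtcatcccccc
Dpep3, chr8:105979420-105979549, minus strand: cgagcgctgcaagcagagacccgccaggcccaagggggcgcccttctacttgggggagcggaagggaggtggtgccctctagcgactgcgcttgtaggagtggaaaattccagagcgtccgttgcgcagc
Uxt, chrX:20961979-20962204, minus strand: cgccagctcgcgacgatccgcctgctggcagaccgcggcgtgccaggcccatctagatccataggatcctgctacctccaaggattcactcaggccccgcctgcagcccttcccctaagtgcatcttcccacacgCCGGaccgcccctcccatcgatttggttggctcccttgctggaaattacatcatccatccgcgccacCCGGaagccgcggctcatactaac
Yy2, chrX:157568986-157569111, minus strand: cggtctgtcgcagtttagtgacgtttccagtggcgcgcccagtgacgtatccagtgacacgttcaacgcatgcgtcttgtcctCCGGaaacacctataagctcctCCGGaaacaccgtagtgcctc
Of the 32851 RefSeq promoters of this table, 47.1% held CCGG in the 250 bases before the start, and their median number of CpGs was 6. The printed stretches hold 9 CpGs (Sycp3) to 20 (Mcts2) and, in the order printed, 2, 4, 0, 3, 0, 0, 2 and 2 CCGG sites. Where a stretch holds none, the level of its island came from other parts of the island or from reads that began outside the stretch. Of 190 listed genes, 121 were found in the promoter table.

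Mean methylation was lower in PGC than in pESC in every region class, and the gap in points grew with the level of the class. Repeats had the widest gap, with a mean of 40.8% in PGC and 46.3% in pESC over 46641 entries, a mean difference of -5.50 points. Over 4445 3' UTRs the means were 33.5% and 38.5%, a difference of -4.98 points. Introns followed with 23.7% and 27.8% (-4.18 points, 19966 introns), and exons with 18.2% and 21.4% (-3.17 points, 20707 exons). These are the parts of genes that are methylated in most cells.

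Regions at gene starts differed by less. Promoters had a mean of 13.8% in PGC and 15.9% in pESC (-2.10 points, 20388 promoters), and CGI shores 11.3% and 12.9% (-1.60 points, 16696 shores). Their median levels were slightly higher in PGC, at 3.34% against 3.32% in promoters and 4.31% against 4.23% in shores. The 11654 5' UTRs had means of 4.00% and 4.52% (-0.522 points). CGIs, which are kept free of methylation in most cells, had 3.41% and 3.55%, a mean difference of -0.146 points over 14214 islands, with medians of 1.48% and 1.49%. Regions of a class spread widely around these means: the SD of the difference over regions was 2.07 points for CGIs, 4.97 for introns and 7.34 for repeats.

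**Figure D1:**
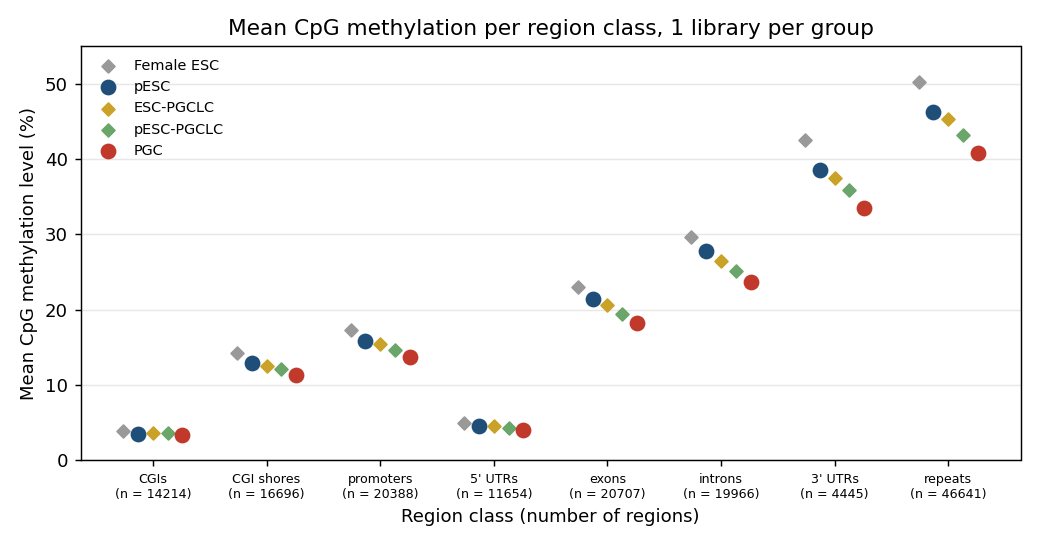
Mean CpG methylation level in percent (y axis) in the 8 region classes (x axis, with the number of regions) for the 5 libraries, 1 point per library, with PGC in red and pESC in blue circles and the other 3 libraries as diamonds. PGC lies below pESC in each class, with a mean difference of -5.50 points in repeats and -0.146 points in CGIs.

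As a proportion the gap was narrowest in CGIs at a floor of 10% on the level. The ratio of PGC to pESC, taken per region where the mean of both levels was at least 10%, had a median between 0.819 (5' UTRs) and 0.920 (CGIs). It was 0.838 in exons and in introns, 0.851 in promoters, 0.845 in shores, 0.869 in 3' UTRs and 0.881 in repeats. The share of these regions with a ratio below 1 ran from 67.0% of CGIs to 91.6% of introns. The ratio of the class means lay between 0.850 in introns and 0.959 in CGIs. With the floor for single regions raised to 30%, the median ratio was 0.878 in CGIs and 0.879 in repeats. CGIs were then no longer the class nearest to 1.

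Regions were also grouped by the mean level of the other 3 libraries, which takes no part in the difference. That mean is not independent of pESC, because pESC-PGCLC was induced from the pESC line and all 3 came from cultured stem cells. Between 30% and 70% methylation, all 32 groups of class and level had a ratio of mean levels between 0.795 and 0.892, with 76.9% to 97.5% of regions lower in PGC. Above 70%, the 13 groups with at least 20 regions had ratios between 0.863 and 0.925, a range that overlaps the former and reaches nearer to 1. The CGIs under 2% methylation, 10338 of the 14214, did not share the gap, with a mean of 1.40% in PGC and 1.39% in pESC.

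At the low end of the scale the order turned in some classes. Repeats whose mean in the other 3 libraries was under 10% were higher in PGC, at 6.87% against 5.12% over 3069 entries, and 65.6% of them were higher in PGC. Among these low entries LINE/L1 elements stood at 8.69% in PGC and 5.93% in pESC, and LTR/ERVK elements at 6.58% and 4.57%. The 294 3' UTRs between 2% and 5% had means of 4.14% in PGC and 3.29% in pESC. Introns under 2% had 1.53% and 1.52%, a ratio of 1.01. Unconverted non-CpG cytosines moved the same way: in the CHH context PGC had class means of 0.669% to 0.719% and pESC 0.580% to 0.619%, and in the CHG context PGC had 0.749% to 0.940% and pESC 0.678% to 0.894%. The part of these non-CpG levels in the higher low-end values was not tested.

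**Figure D2:**
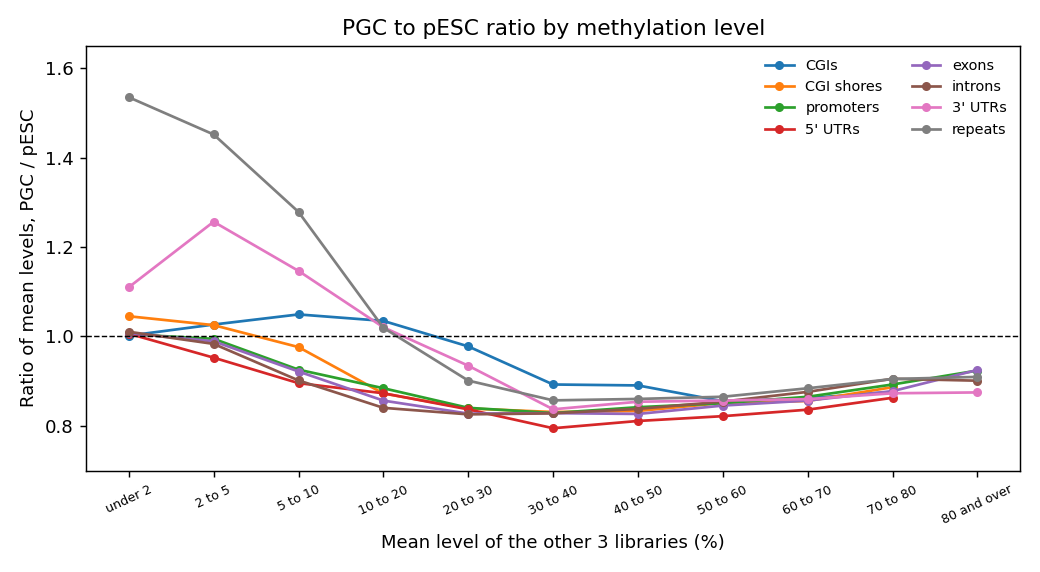
Ratio of the mean CpG level of PGC to that of pESC (y axis) for regions grouped by the mean level of the other 3 libraries in percent (x axis, uneven steps), 1 line per region class, for groups of at least 20 regions. The lines fall from 1 or above at low levels to between 0.795 and 0.892 from 30% to 70%, then rise towards 0.925, and repeats and 3' UTRs start highest.

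PGC was the lowest of the 5 libraries at most methylated regions. Among regions with a mean of at least 30% over the 5 libraries, PGC was lowest at 62.8% of 382 CGIs, 70.1% of 2639 shores, 70.9% of 4630 promoters and 77.6% of 8770 introns. pESC was lowest at 2.27% of these introns and at 7.33% of these CGIs. Of the same 382 CGIs, 330 were lower in PGC than in pESC, or 86.4%.

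Gene bodies were lower in PGC than in pESC whether or not their promoters were methylated. In 2391 genes with a promoter under 5% in both libraries and an intron level of at least 30% in pESC, the mean intron level was 36.9% in PGC and 44.6% in pESC, a ratio of 0.827, and 97.2% of the introns were lower in PGC. The promoters of these genes stood at 1.90% and 1.94%. In 1471 genes with a promoter of at least 30% in pESC, introns had 40.4% and 48.0%, a ratio of 0.842, and promoters 40.7% and 48.8%. Exons of 1242 genes with unmethylated promoters were at 35.8% and 44.0%, and 3' UTRs of 1358 such genes at 44.9% and 52.2%. Bodies of at least 30% were chosen on the pESC level, which by itself favours a lower second library.

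Most methylated regions of maternally methylated imprinted genes had lower levels in PGC than in pESC. Of 22 listed genes, 18 had a CGI or shore at an end of the gene, 17 of them distinct because Peg10 and Sgce share an island. By the longest island at the gene's ends, 12 of the 18 were lower in PGC and 6 higher, with list medians of 22.4% and 33.9% and a median difference of -5.73 points. The 12 that averaged at least 10% over both libraries were each lower in PGC, with a median ratio of 0.834. Over all 12081 protein-coding genes with such a region, 53.9% were lower in PGC with a median difference of -0.0388 points, and among the 504 of at least 10% on average, 77.4% were lower with a median difference of -3.77 points.

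Among the 4 most methylated genes in pESC the gap ran from -5.97 to -15.4 points. The island of Peg13, a noncoding RNA gene (chr15:72809537-72810123), stood at 63.2% in PGC, 77.8% in pESC, 74.2% in pESC-PGCLC, 36.9% in Female ESC and 33.0% in ESC-PGCLC. Peg3, which encodes a zinc finger protein (chr7:6730062-6730398), had 50.3% in PGC, 65.7% in pESC, 58.8% in pESC-PGCLC, 36.2% in Female ESC and 12.2% in ESC-PGCLC. At Airn, whose noncoding transcript shuts down Igf2r on the same chromosome (chr17:12741440-12742489), the levels were 52.1% in PGC, 61.2% in pESC, 62.1% in pESC-PGCLC, 2.01% in Female ESC and 1.03% in ESC-PGCLC. Kcnq1ot1, an antisense transcript that silences its neighbours (chr7:143295404-143295824), was at 61.7% in PGC, 67.7% in pESC, 75.02% in pESC-PGCLC, 16.7% in Female ESC and 20.5% in ESC-PGCLC. At all 4 islands PGC lay below pESC and pESC-PGCLC and above the libraries of the biparental line.

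Nap1l5, a nucleosome assembly gene, had 46.0% in PGC and 56.1% in pESC, and Zrsr1, a splicing factor gene, 35.1% and 41.0%. Peg10, a placental gene of retrotransposon origin, and its neighbour Sgce had on their common island 33.1% in PGC and 39.1% in pESC. Plagl1, a zinc finger gene whose promoter stretch is printed above, had 24.8% and 28.7%, and Nnat, a membrane protein gene of the brain, 19.9% and 25.5%. At these genes the difference lay between -3.85 and -10.03 points, a narrower band than the levels themselves.

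Gnasas1, transcribed antisense to Gnas, stood apart, with a shore (chr2:174295261-174297261) at 6.78% in PGC against 40.9% in pESC, 21.1% in pESC-PGCLC, 17.8% in Female ESC and 6.18% in ESC-PGCLC. The neighbouring island inside Gnas, the gene of the stimulatory G protein alpha subunit (chr2:174297262-174297532), had 37.3% in PGC and 64.4% in pESC. The next island, of 2182 bp (chr2:174298463-174300644), had 51.5% and 58.4%. Within this 1 locus the difference therefore ran from -34.1 points on the shore and -27.2 points on the short island to -6.84 points on the long one.

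The members that were higher in PGC had levels under 10% in both libraries. Mcts2, a retrogene inside H13 whose promoter stretch is printed above, was at 9.22% in PGC and 6.14% in pESC, and the shore of Slc38a4, an amino acid transporter gene, at 6.74% and 3.74%. The promoter island of Igf2r, the receptor that clears IGF2, had 3.20% and 0.795%, and the island of Gnas at its outer end 4.25% and 2.77%. H13, a signal peptide peptidase gene, had 1.96% and 1.78%, and Grb10, a growth-restraining adaptor gene, 1.70% and 1.59%. Inpp5f, a phosphatase gene, was lower in PGC at 8.33% against 12.0%. The region at a gene's end was not always its methylated one. In pESC an island inside Igf2r, that of Airn, stood at 61.2%, and one inside Gnas at 58.4%. The counts and medians of the list by gene ends therefore mix methylated regions with regions of low methylation in pESC.

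Counting every CGI and shore at or inside these genes gave 48 regions, of which 33 had at least 20% in pESC. The same number, 33, had at least 20% in pESC-PGCLC, with the same counts and medians. That library is outside the comparison but was induced from the pESC line, so it is not an independent choice of regions. Among the 33, 32 were lower in PGC than in pESC and 1 higher, a shore of Nnat with 28.5% against 26.0%. Most regions of such levels were lower in PGC across the genome too. Of all CGIs at 20% to 30% in pESC, 60.9% were lower in PGC, and of all such shores 81.4%. At 50% to 60% in pESC the shares were 92.4% of CGIs and 97.4% of shores. Choosing regions on the pESC level by itself favours a lower second library. Their ratio of PGC to pESC had a median of 0.821 and ran from 0.166 to 1.10. PGC was above Female ESC at 30 of the 33 and above ESC-PGCLC at 32, and it was below pESC-PGCLC at 31. Medians were 38.5% in PGC, 50% in pESC, 44.7% in pESC-PGCLC, 17.8% in Female ESC and 12.2% in ESC-PGCLC. Shores overlap the islands next to them in part, so these regions share cytosines.

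Regions inside 4 genes whose ends gave a different picture, or no region, were part of that count. The shore inside Mest, a hydrolase gene, was at 36.9% in PGC and 53.7% in pESC, and the island inside Impact, a translation regulator gene, at 39.8% and 49.4%. The inner island of Inpp5f had 35.2% and 48.6%. The inner island of Grb10 differed least, with 19.9% and 20.5%.

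**Figure D3:**
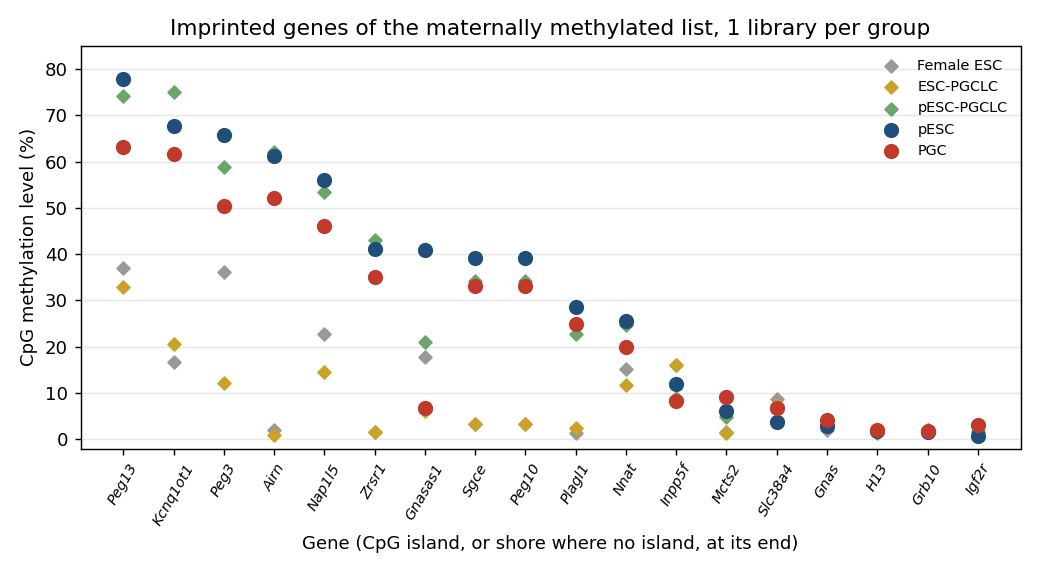
CpG methylation level in percent (y axis) at the CGI, or shore where there is no CGI, of 18 maternally methylated imprinted genes (x axis, ordered by pESC), 1 point per library. PGC (red) lies below pESC (blue) at the 12 most methylated genes and near or above it at the rest, with the widest gap at Gnasas1 (6.78% against 40.9%), while Female ESC and ESC-PGCLC lie far lower at most methylated genes.

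Paternally methylated imprinted genes gave little to compare. Of 6 listed genes, 3 had a region at a gene end. The shore of Igf2, the fetal growth factor gene, was at 19.2% in PGC and 21.6% in pESC. The island of Dlk1, a Notch-related ligand gene, had 1.47% and 1.27%, and that of Rasgrf1, a Ras exchange factor gene, 2.35% and 1.42%. An island inside Dlk1 stood at 23.5% and 24.3%. Zdbf2, a zinc finger gene with no region at its ends by this rule, had 3 islands at or inside it, at 5.91% in PGC and 8.67% in pESC, at 2.29% and 1.72%, and at 1.61% and 1.34%.

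Germline genes, whose CGI promoters are silenced by methylation in body cells, were mostly lower in PGC at their methylated members. Among meiosis genes, 16 of 27 had a region, 9 lower and 7 higher in PGC, with medians of 13.4% and 14.0% and a median difference of -0.189 points. Among the 9 that averaged at least 10%, 7 were lower. The share lower was thus near the 77.4% found over all methylated gene regions.

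Sycp3, an axial element of the synaptonemal complex, had an island at 41.2% in PGC, 49.0% in pESC, 54.4% in Female ESC, 48.0% in ESC-PGCLC and 45.4% in pESC-PGCLC, PGC being the lowest. The shore of Brdt, a chromatin reader of spermatids, had 59.9% in PGC and 66.8% in pESC. Sycp1, the transverse filament, stood at 23.2% and 28.3%. Syce3, another complex member, was at 33.7% and 33.0%, and the shore of Stra8, the gene that opens meiosis, at 41.4% and 42.2%. Tex14, needed for the bridges between germ cells, was the other way round, with 7.14% in PGC against 1.54% in pESC and at most 3.90% in the other 3 libraries.

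Genes of the piRNA pathway and germ granules, which silence transposons in germ cells, had regions at 11 of 19 members, 7 lower and 4 higher in PGC, with a median difference of -4.69 points that rests on the shores. Among the 7 that averaged at least 10%, 6 were lower and the median ratio was 0.776. Beside these counts, 53.9% of all protein-coding gene regions were lower in PGC, and 77.4% of those of at least 10%. Tdrd1, a Tudor-domain scaffold of the granules, had a shore at 49.2% in PGC, 68.4% in pESC, 65.4% in Female ESC, 54.3% in ESC-PGCLC and 57.6% in pESC-PGCLC. The shore of Tdrd6, another Tudor-domain gene, had 17.0% in PGC and 32.6% in pESC, but 14.2% in Female ESC and 12.3% in pESC-PGCLC, so here pESC was the library that stood out. The shore of Fkbp6, a chaperone cofactor gene, was at 41.7% and 54.0%, and that of Mov10l1, the piRNA helicase, at 49.1% and 57.3%.

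The islands of the pathway were less methylated and mixed in direction. Dazl, whose stretch is printed above, was at 16.3% in PGC and 20.9% in pESC. Mael, a transposon-silencing gene, had 22.9% and 22.5%, and Ddx4, the germ cell helicase, 10.2% and 8.09%. Rnf17, a granule component, was at 8.63% in PGC against 2.23% in pESC. Taking islands alone turned the median difference of this list to 0.771 points.

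Testis genes had regions at 8 of 17 members, 5 lower and 3 higher in PGC, close to the 53.9% lower over all protein-coding gene regions. Dpep3 had the widest difference, with an island (chr8:105979058-105979549) at 54.4% in PGC, 69.4% in pESC, 74.5% in Female ESC, 69.2% in ESC-PGCLC and 59.3% in pESC-PGCLC. Tuba3a, a testis tubulin gene, was at 30.6% in PGC and 37.1% in pESC, and the shore of Adad1, a spermatid gene, at 30.8% and 36.2%. The shore of Tnp2, a transition protein gene of sperm chromatin, had 2.00% and 3.57%. Slc25a31, the testis ADP/ATP carrier gene, had 36.2% and 35.2%.

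Most regulators of cell identity with a measured region were nearly free of methylation in both libraries, so they told the libraries apart hardly at all. Many listed genes had no region. Of 15 pluripotency genes, 8 had a region, all islands, with medians of 1.35% in PGC and 1.37% in pESC. The widest gap was at Tbx3 and Prdm14, with 1.39% and 1.71% at the first and 1.71% and 1.33% at the second. The 4 of 10 PGC specification genes with a region had medians of 1.80% and 2.37%. Among them, Tfap2a, a transcription factor gene, was at 2.05% and 3.97% and the shore of Prdm1 at 1.90% and 3.40%. The 9 genes of the primed epiblast had medians of 1.59% in both. Trophoblast genes had 1.41% and 1.39% over 5 of 10 members. Blood and endothelial genes were the exception, with medians of 15.7% and 15.9%, but only 2 of 12 members had a region. Of these, the shore of Spi1 was at 28.9% and 30.7%.

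Genes of cells that could be carried along gave the following levels. Of 13 gonadal somatic genes, 6 were higher and 7 lower in PGC, with medians of 1.57% and 1.78%. The shore of Tcf21, a mesenchyme factor gene, stood at 23.7% in PGC, 36.3% in pESC, 46.2% in Female ESC, 35.0% in ESC-PGCLC and 40.6% in pESC-PGCLC. The shore of Nr5a1, the nuclear receptor of gonad and adrenal, had 56.3% in PGC and 64.0% in pESC. PGC was the lowest of the 5 at both shores, as it was at 70.1% of all 2639 shores that averaged at least 30%. Of 6 fibroblast genes, which could mark the feeder cells of pESC, 3 were higher and 3 lower, with medians of 1.77% and 1.48% and the shore of Thy1 at 5.31% in PGC and 2.28% in pESC. The part of such cells in the differences was not tested.

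Among 8 genes of the methylation machinery, 4 were higher and 4 lower in PGC, and 7 were under 2% in both. The exception was a shore of Dnmt3l, which helps the enzymes lay down new methylation in germ cells, at 23.7% in PGC, 33.7% in pESC, 39.0% in Female ESC, 24.9% in ESC-PGCLC and 30.3% in pESC-PGCLC. Of 37 Hox genes, 23 were lower and 14 higher in PGC, with medians of 1.73% and 1.87%, and of 26 clustered protocadherins 14 were lower and 12 higher, both near the 53.9% lower over all gene regions. The shore of Hoxd4 had 28.3% and 39.8%, and the island of Hoxb1 2.59% and 10.2%. Clustered protocadherins, cell-surface genes of neurons that are chosen at random per cell, differed in both directions. Of the 9 that averaged at least 10%, 8 were lower and 1 higher, with a median difference of -3.68 points. Over all gene regions of such levels, 77.4% were lower. The shore at Pcdhgb5 was at 11.8% in PGC and 1.97% in pESC, and that of Pcdhb17 at 27.1% and 33.8%. All 3 Rhox genes with a region, homeobox genes of the X chromosome, were slightly higher in PGC, led by Rhox9 with 10.4% against 8.49%, but averaging every island and shore of each gene turned the median difference of the list from 1.11 to -1.50 points.

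Few islands differed by at least 25 points, and those that did were short. Of 14214 CGIs, 4 were higher in PGC, or 0.0281%, and 3 lower, or 0.0211%. The 7 islands were 208 to 306 bp long with a median of 271 bp, against a median of 605 bp for all islands. At 10 points, 152 islands differed, and 75% of them were under 400 bp, a length class that held 25.5% of all islands. The SD of the difference went from 4.17 points in islands of 200 to 300 bp to 0.839 points in islands of at least 1000 bp. With no read counts, how much of this spread is counting error was not tested.

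The islands that were lower by 25 points lay at Sil1, a chaperone cofactor gene, at Gm16372, a gene model, and in Gnas. The island of Sil1 was listed at 0% in PGC and 33.3% in pESC, but at no more than 3.23% in each of the other 3 libraries. That of Gm16372 had 21.5% and 49.5%. Below the threshold, islands of Tmem125, a membrane protein gene, had 51.8% and 74.7%, of Syt7, a synaptotagmin gene, 26.3% and 48.9%, and of Taf9b, a transcription factor subunit gene of the X chromosome, 38.3% and 59.8%. Slc2a10, a glucose transporter gene, stood at 11.9% and 30.8%, and an island inside Lhx9, a gonad factor gene, at 40.5% and 59.3%. A pair of islands near no gene had 32.5% and 54.3%, and 51.2% and 71.8%.

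The islands that were higher by 25 points lay in Rapgef2, Prrc1 and Rgl3 and at Ocstamp. The island in Rapgef2, a Rap exchange factor gene, had 35.7% in PGC and was listed at 0% in pESC, with 10.3% to 11.9% in the other 3 libraries, and the shore beside it had 28.1% and 2.94%. Prrc1 had 34.5% and 5.48%, and Ocstamp, a gene of osteoclast fusion, 51.8% and 24.5%. Rgl3, a Ral exchange factor gene, had 27.0% in PGC and 0% listed in pESC, where the other 3 libraries stood between 22.1% and 29.0%. Kdm2b, a histone demethylase gene, followed with 43.4% and 21.2%, then the pseudogene Ctdsp2-ps with 21.4% and 2% and Apc2, a relative of the Wnt regulator Apc, with 33.6% and 16.0%. The next were Vcp-rs with 19.4% and 2.17%, Gm1943 with 27.6% and 10.5% and Gm13331 with 42.2% and 26.2%.

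Among shores, 8 of 16696 were at least 25 points higher in PGC, or 0.0479%, and 21 lower, or 0.126%. The shore in Kcnn1, a potassium channel gene, was listed at 0% in PGC and 60% in pESC, and that of Agk, a lipid kinase gene, at 0% and 42.9%. At Agk the other 3 libraries had 5.56% to 18.2%, so pESC was the one apart. The shore of Dlg3, a synaptic scaffold gene of the X chromosome, had 24.0% and 66.1%, and that of Oxct2a, a testis enzyme gene, 20% and 60.2%. At Oxct2a the other 3 libraries stood between 65.4% and 74.3%, so PGC was the one apart. The shore of Six3os1, a noncoding RNA gene, had 2.70% and 39.7%. Higher in PGC were the shores of Dnah7c, a dynein gene, with 46.6% against 3.06%, and Mrto4, a ribosome assembly gene, with 51.9% against 19.6%. At Dnah7c the germ cell-like libraries stood at 54.6% and 48.3% and Female ESC at 12.3%, and at Mrto4 at 51.5%, 56.9% and 21.9%. The shores of Gm5124, a gene model (33.6%), and Ltbp4, a matrix gene (32%), were listed at 0% in pESC, and that of Speg, a muscle kinase gene, had 40% and 11.1%. The other 3 libraries had 36.1% to 69.0% at Gm5124, 21.6% to 29.8% at Ltbp4 and 27.6% to 66.7% at Speg. At these shores pESC was thus the lowest library.

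Promoters carry gene identifiers that no table used here pairs with symbols, so they are given as counts. Of 20388, 11 were at least 25 points higher in PGC, or 0.054%, and 44 lower, or 0.216%. The 11 had medians of 37.2% in PGC and 2.48% in pESC, and none of the 8 introns measured in the same genes was higher in PGC (0 of 8), nor were 7 of the 10 exon levels. The 44 had medians of 27.2% and 60.1%, and 21 of their 22 measured introns and 25 of their 29 exon levels were lower too. Over all genes, 80.7% of intron levels and 71.1% of exon levels were lower in PGC.

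Most islands of the X chromosome were higher in PGC. Of 363 CGIs on it, 269 were higher in PGC, or 74.1%, against 6438 of 13845 autosomal islands, or 46.5%. The median island level was 2.24% in PGC and 1.47% in pESC, beside 1.58% in Female ESC, 1.62% in ESC-PGCLC and 1.84% in pESC-PGCLC, so PGC was the highest of the 5. The median difference was 0.652 points, while over the 19 autosomes the medians ran from -0.0914 to -0.00145 points and the share of islands higher in PGC from 40.8% to 49.6%. PGC was higher by at least 1 point at 37.5% of X-linked islands and 5.94% of autosomal ones.

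**Figure D4:**
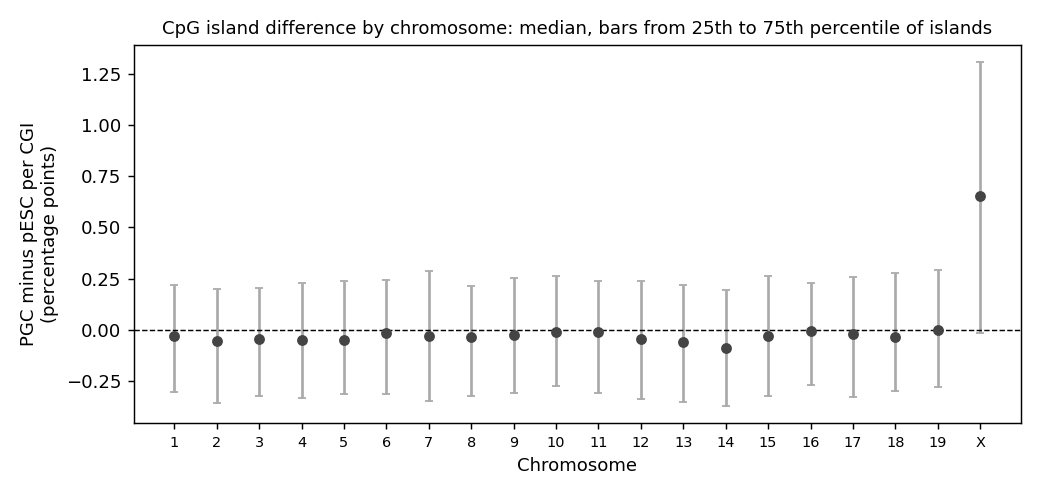
PGC minus pESC per CGI in percentage points (y axis) by chromosome (x axis): points are medians over islands and bars run from the 25th to the 75th percentile of islands, not a replicate error. The X chromosome has a median of 0.652 points, and the 19 autosomes lie between -0.0914 and -0.00145.

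The sex of the PGC fetuses is not given and nothing about it is read from these levels. The difference was small at most genes: of 319 X-linked genes with a region, 244 were higher and 75 lower in PGC, with medians of 2.32% and 1.49%. Uxt, a cofactor gene with a stretch printed above, was at 13.3% in PGC, listed at 0% in pESC, Female ESC and ESC-PGCLC, and at 9.23% in pESC-PGCLC. Yy2, a retrogene encoding a transcription factor, had 12.9% in PGC and 1.95% in pESC, with at most 4.33% elsewhere. Pola1, a subunit gene of DNA polymerase alpha, had 7.09% and 0.756%, and the shore of Ebp, a sterol enzyme gene, 17.4% and 4.62%.

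Some X-linked genes chosen after their values were seen show the range. Atrx, a chromatin remodeller gene, had 2.58% in PGC and 0.751% in pESC. Hprt, a purine salvage enzyme gene, had 1.48% and 1.20%. The island of Kdm6a was nearly equal, with 1.61% and 1.60%. Lower in PGC were the islands of Ddx3x with 0.936% against 1.69%, Eif2s3x with 0.508% against 1.44% and Kdm5c with 1.01% against 1.61%.

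Methylated X-linked regions were mostly lower in PGC. Regions were chosen here by a mean of at least 30% in the other 3 libraries. These take no part in the difference, but pESC-PGCLC among them was induced from the pESC line. Of 12 such X-linked islands, 10 were lower in PGC, or 83.3%, beside 86.7% of 368 such autosomal islands. Of 43 such X-linked shores, 40 were lower, or 93.0%, beside 92.4% of 2682 autosomal ones. Ezhip, a germ cell inhibitor gene of Polycomb, was at 60.9% in PGC and 76.6% in pESC, and Ldoc1, a retrotransposon-derived gene, at 23.2% and 36.1%. Over all 391 X-linked shores, 56.3% were higher in PGC, with medians of 4.31% and 3.06%.

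Repeats, which hold most of the methylated CpGs of the genome, were lower in PGC in nearly every family. Of 293 families with at least 20 entries, 292 had a lower mean in PGC, or 99.7%, with a median difference of -5.57 points and a median ratio of 0.873. Among single entries, 91 of 46641 were at least 25 points higher, or 0.195%, and 553 lower, or 1.19%. By class the ratio of means was 0.886 in LINE/L1 (45.5% and 51.4%, 21176 entries), 0.897 in LTR/ERVK (45.1% and 50.3%), 0.891 in LTR/ERV1, 0.874 in SINE/Alu, 0.857 in LTR/ERVL and 0.850 in LINE/L2. Entries of a family share sequence and are not replicates.

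IAP elements, the retroviruses best known for resisting erasure, had a ratio nearer to 1 than the median family. Over 25 IAP families and 935 entries the mean was 63.0% in PGC, 67.7% in pESC, 70.6% in Female ESC, 67.2% in ESC-PGCLC and 65.3% in pESC-PGCLC, a PGC to pESC ratio of 0.931. Its internal part IAPEz-int had 68.5% and 73.0%. Other methylated retroviruses were near to that, with ETn at 55.8% and 60.4% (0.924) and MMERVK10C at 61.8% and 67.1% (0.920). MERVL and its LTR MT2_Mm, active in the early embryo, had 40.5% and 47.3%, a ratio of 0.855 over 49 entries. Highly methylated regions of several classes also had ratios nearer to 1, and whether the retroviruses differ from other regions of their level was not tested.

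The mouse-specific L1 families, which include the LINEs still mobile today, were all lower in PGC, with ratios from 0.869 in L1MdV to 0.943 in L1MdN. L1MdA had 48.4% in PGC and 54.2% in pESC over 6391 entries (0.892), L1MdF 46.4% and 52.4% over 7366 (0.885), L1MdTf 44.9% and 49.5% over 1232 (0.907), and L1MdGf 50.5% and 55.6% over 984 (0.909). Within LINE/L1 consensus sequences, entries starting in the first 500 bases, where the CpG-rich promoter lies, had 54.1% and 59.6%, a ratio of 0.908. Entries starting between bases 5501 and 6500, at the far end, had 41.5% and 47.5%, a ratio of 0.873.

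**Figure D5:**
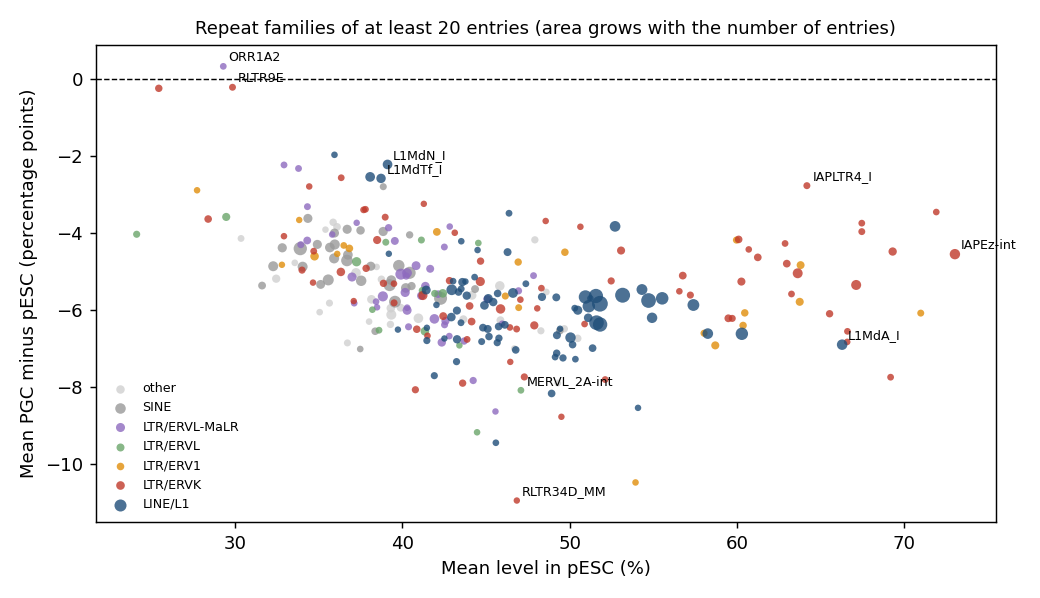
Mean PGC minus pESC in percentage points (y axis) against the mean level in pESC in percent (x axis) for 293 repeat families of at least 20 entries, coloured by class, with a point area that grows with the number of entries. All but ORR1A2 (0.333 points) lie below 0, most around the median of -5.57 points, and IAPEz-int lies at the right end with 73.0% in pESC.

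The widest differences were in families with few entries. RLTR34D_MM, an ERVK LTR, had a mean difference of -10.95 points and 35.9% in PGC over 20 entries, RLTR1D2_MM, an ERV1 LTR, -10.5 points and 43.5% over 23, and MT2B2, an ERVL LTR, -9.18 points and 35.3% over 23. The older L1MD had -9.45 points and 36.1% over 26. The ERVK LTR RLTR13D3A1 had 40.7% in PGC and 49.5% in pESC over 20 entries. At the other end, ORR1A2 had 29.6% in PGC and 29.3% in pESC over 28 entries, and RLTR9E 29.6% and 29.8% over 34. RMER17C stood at 25.2% and 25.4% over 54 entries. L1MdN_I, with 229 entries, had 36.9% and 39.1%, and L1MC had 34.0% and 35.9%. The SD over entries was 7.82 points in ORR1A2 and 15.3 points in RLTR34D_MM.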

How the data were processed

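The authors deposited a methylation fraction (0 to 1) per region and cytosine context, in 1 file per library, printed here as percent. Bismark 0.16.3, Bowtie2 and the build mm10 are named in the submitters' processing notes; no source used here gives the trimming, the coverage filter or how regions were drawn. The plan allowed for read counts with a coverage minimum and Wilson intervals. The files hold no counts, so depth is unknown and neither was used.

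Differences, ratios (mean of both levels at least 10%), and counts at 25 points were computed over CpG regions listed in all 5 libraries with Python 3.11.15, pandas 2.3.3 and numpy 2.4.6, and tested on simulated data. A gene took the longest CGI within 1000 bp of either end, or else the longest shore, from RefSeq coordinates on GRCm38.p6. CGI coordinates are as deposited, and their counting base is not stated. Ensembl identifiers were paired with 0 symbols. Named genes are all measured imprinted members, the 10 CGIs and 5 shores of largest difference in each direction, CGIs at 25 points, up to 4 members of each list of largest difference, and the 5 repeat families at each end. Other list members, X-linked genes and repeat groups were named for contrast after values were seen. Members and lists were chosen with earlier results of these data known. Alternatives were another threshold, regions common to both libraries only, values at exactly 0 or 1 left out, CHH levels subtracted, the class shift taken out, medians, and other region choices per gene.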

Additional observations from a re-analysis of the deposited data

Results flagged for a closer look

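On the Y chromosome, 7 CGIs and shores had a CpG level in PGC, and 5 of them were listed in no other library, while each of the other 4 libraries listed 2. These regions take no part in the comparison, which needs all 5 libraries. The levels in PGC at the 5 regions listed only there lay between 16.7% and 71.4%. Part of the Y chromosome pairs with the X and shares its sequence, and how the reads were placed there was not tested.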

How the results depend on the processing

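With 1 library a side, no counts and no test, the values here describe these libraries only. All 32 alternative values of the class difference stayed below 0, and 26 moved little. Medians in place of means gave -0.0276 points in CGIs, -0.452 in shores, -0.359 in promoters, -0.0598 in 5' UTRs and -1.21 in exons, and subtracting the CHH level gave -0.231 in CGIs. The median ratio stayed between 0.812 and 0.926 in 32 alternatives. Higher CGIs numbered 31 at 10 points, 0 at 40 points, 2 without levels of exactly 0 or 1, and 0 among CGIs of at least 400 bp, a limit chosen after seeing the data. Lower CGIs numbered 121, 0 and 0 at those thresholds and that length, and 5 among regions common to both libraries. Higher promoters numbered 104 at 10 points, 2 at 40 and 19 in both libraries. Lower promoters numbered 1520, 5 and 80, and 13 with the class shift taken out. The cause was not tested beyond what each change of rule does. Of 17 gene list medians, 7 kept their sign throughout. The piRNA list turned to 0.771 with islands only and the Rhox list to -1.50 with all regions averaged. No paired analysis was possible because each group had 1 library.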
